A study of Mus musculus with 11 samples.

Results

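The genes examined were the subunits, activators and assembly chaperones of the mouse proteasome, including the immunoproteasome. They were taken as every gene whose symbol in the platform annotation is Psma to Psmg followed by a number and that had a probe above background, at a detection p-value under 0.05, on 2 or more of the 11 arrays. Of 49 matching symbols, 42 met that condition, out of 12865 genes tested in all. The 7 left out were Psma1, Psma3, Psma6, Psma8, Psmb11, Psmd3 and Psmg4. Among the 42, 27 encode constitutive subunits of the 20S core and the 19S particle, 5 are the immunoproteasome genes Psmb8, Psmb9, Psmb10, Psme1 and Psme2, and 10 are other activators, assembly chaperones and genes that share the symbol. The last kind holds Psmc3ip and Psme3ip1, which are no proteasome subunits.

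The 26S proteasome degrades proteins tagged with ubiquitin. Its 20S core is a barrel of alpha and beta rings, in which Psmb5, Psmb6 and Psmb7 encode the catalytic subunits, and the 19S particle binds ubiquitin chains, unfolds the substrate with a ring of ATPases and feeds it into the core. Interferon-gamma induces 3 alternative catalytic subunits, Psmb8, Psmb9 and Psmb10, which take the places of Psmb5, Psmb6 and Psmb7 in newly built cores, and the PA28 activator made of Psme1 and Psme2. The resulting immunoproteasome is abundant in leukocytes and is known for cutting peptides for presentation on MHC class I.

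Total RNA was from whole organs of adult mice of the BALB/C strain, each labelled female, with no transgene named for any group, and was hybridised to Illumina bead arrays. The fibrotic kidneys (n = 2) had unilateral ureter obstruction, in which urine backs up into 1 kidney, and were set against kidneys of healthy mice (n = 3). The fibrotic lungs (n = 3) had received bleomycin, which damages lung epithelial cells, into the trachea, and were set against lungs of healthy mice (n = 3). The titles give the healthy kidneys and lungs as organs of the same 3 mice, and the time after injury is not given in the sources used here. Levels are log2 intensities after background correction and quantile normalisation, and each gene is read from its brightest probe. A change passed the test at a limma adjusted p under 0.05, adjusted over all 12865 genes. Where groups are said not to overlap, this describes the arrays only. It was not counted over all genes, and members that did not pass, such as Psmb2 in the kidney, showed it too.

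Several arrays stood apart from their labels or from their groups. Xist, which marks female cells, was at 10.83 and 10.56 in the fibrotic kidneys and 9.03 in fibrotic lung 3, against 4.33 to 5.61 on the other 8 arrays, and the Y-linked Eif2s3y was at 4.40 to 4.44 on those 3 arrays, against 9.06 to 9.78 on the others. By these 2 genes the 3 arrays match the label female, and the other 8, among them all healthy kidneys and lungs, read as male against it. The inferred sex therefore differed between the fibrotic and the healthy kidneys without overlap, and sex and obstruction cannot be told apart in them. The log2 of the summed intensity of 6 lung markers was 12.84 and 11.75 in the fibrotic kidneys, against 7.37 to 7.83 in the healthy ones. On these arrays 4 and 5 of the 6 were above background, against 1 or 2. Of the 6, 4 rose and 0 fell, against 23.2% and 15.6% of all genes. Scgb1a1 had the highest level of the 6, at 12.48 and 11.35, against 4.37 to 4.52. Cldn18 went the other way, at 4.66 and 4.80, against 4.90 to 5.64, and did not pass. Sftpb did not pass either, at 4.86 and 5.34, against 4.53 to 4.73. The log2 of the summed intensity of 5 kidney markers was 10.76 in fibrotic lung 1, against 9.24 to 9.85 in the other lungs, with 4 of the 5 above background, against 1 or 2. Of these, Lrp2 was at 8.90 to 9.60 in all lungs and Aqp2 at 4.37 to 4.50. Umod was at 9.19 in fibrotic lung 1 and 5.74 in fibrotic lung 2, against 4.46 to 4.55 in the other lungs. In fibrotic lung 1 Slc12a1 was at 7.17, against 4.37 to 4.74, and Slc34a1 at 7.70, against 4.40 to 6.625. The log2 of the summed intensity of 5 liver markers was 15.82 in healthy lung 3, against 6.91 to 7.17 in the other lungs, and 9.94 and 9.25 in the fibrotic kidneys, against 11.60 to 12.64 in the healthy ones. Raw median intensity was 109.5 and 95.2 in the fibrotic kidneys, against 117.2 to 122 in the healthy ones, and 123.6 to 125.1 in the fibrotic lungs, against 106.8 to 111.5 in the healthy ones, so it ran in opposite directions in the 2 organs. Of the 42 members, 40 to 42 were above background on each array. The part of these differences in the results was not tested, beyond the values with arrays left out.

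The immunoproteasome genes were mostly higher in fibrotic kidneys, and the constitutive subunits mostly higher in fibrotic lungs. In fibrotic kidneys, 3 of the 5 immunoproteasome genes rose and 0 fell, with a median log2 change of 1.18, whereas 2 of the 27 constitutive subunits rose and 5 fell, with a median of -0.00. In fibrotic lungs, 1 of the 5 rose and 3 fell, with a median of -0.37, whereas 19 of the 27 rose and 0 fell, with a median of 0.60. The median gene of the 5 was Psme1 in both organs. Its other probe changed by 0.31 in the lung, so the sign of that lung median depends on the probe read. Over all genes tested, 23.2% were higher and 15.6% lower in fibrotic kidneys, with a median of 0.10, and 18.9% were higher and 18.9% lower in fibrotic lungs, with a median of -0.03. Of all 42 members, 7 rose and 7 fell in the kidney and 25 rose and 3 fell in the lung. In the kidney the member count in either direction is near the share over all genes. With single arrays left out, the kidney changes were 1.36 to 1.58 for Psmb8, 1.72 to 1.88 for Psmb10 and 1.10 to 1.22 for Psme1. Without healthy kidney 1, these 3 were the members that rose in the kidney, against 19.7% of all genes. In the lung 1 to 3 members fell with single arrays left out, Psmb10 among them each time. Leaving out fibrotic lungs 1 and 3, a setting chosen after seeing the data, left 1 fibrotic lung, so no count is given for it.

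**Figure D1:**
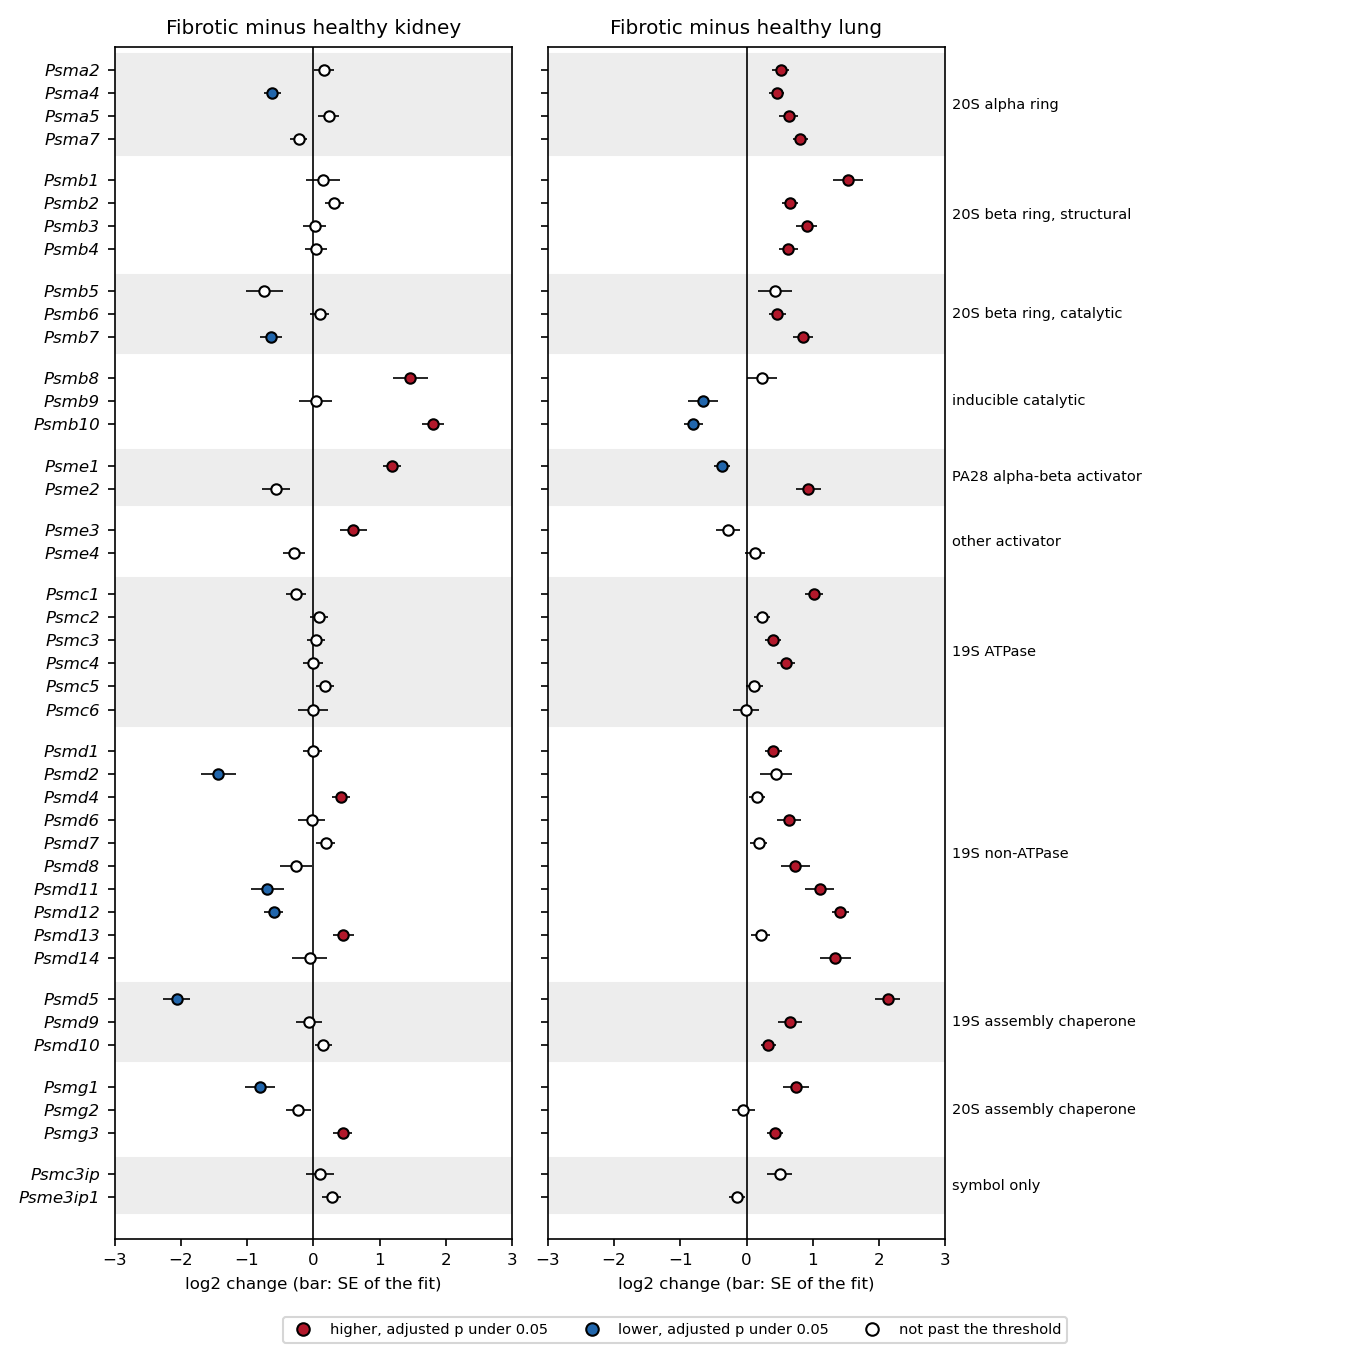
Log2 change of each of the 42 members (horizontal axis) in fibrotic against healthy kidney (left) and fibrotic against healthy lung (right), grouped by role, with bars for the SE of the fit, red where higher and blue where lower at a limma adjusted p under 0.05. In the lung 19 of 27 constitutive subunits lie on the higher side and past the threshold, and in the kidney Psmb8, Psmb10 and Psme1 have the largest rises.

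The sequences around the transcription starts of 4 immunoproteasome genes are shown because Psmb8, Psmb10 and Psme1 rose together in the kidney while Psme2 did not. They are RefSeq sequences of build GRCm38.p6, from 250 bases before to 50 bases after the annotated start, written 5′ to 3′ on the gene's strand. Capitals mark matches on either strand to GAAANNGAA, the core of the interferon-stimulated response element, to the palindrome TTCNNNGAA, or to TGANNNNGC, the core of the antioxidant response element bound by NRF1 and NRF2.
Psmb8, chr17:34197945-34198244, plus strand: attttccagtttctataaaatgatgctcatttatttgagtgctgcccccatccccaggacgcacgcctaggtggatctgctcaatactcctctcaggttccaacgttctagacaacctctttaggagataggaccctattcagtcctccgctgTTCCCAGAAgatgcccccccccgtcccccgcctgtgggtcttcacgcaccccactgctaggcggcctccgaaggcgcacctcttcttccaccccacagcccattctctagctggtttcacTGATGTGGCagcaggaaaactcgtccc
Psmb10, chr8:105938343-105938642, minus strand: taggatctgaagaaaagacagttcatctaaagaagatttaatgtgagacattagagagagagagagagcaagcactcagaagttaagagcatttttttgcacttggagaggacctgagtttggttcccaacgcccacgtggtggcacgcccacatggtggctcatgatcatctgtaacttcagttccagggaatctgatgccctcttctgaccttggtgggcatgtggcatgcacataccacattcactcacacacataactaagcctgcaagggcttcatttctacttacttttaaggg
Psme1, chr14:55578244-55578543, plus strand: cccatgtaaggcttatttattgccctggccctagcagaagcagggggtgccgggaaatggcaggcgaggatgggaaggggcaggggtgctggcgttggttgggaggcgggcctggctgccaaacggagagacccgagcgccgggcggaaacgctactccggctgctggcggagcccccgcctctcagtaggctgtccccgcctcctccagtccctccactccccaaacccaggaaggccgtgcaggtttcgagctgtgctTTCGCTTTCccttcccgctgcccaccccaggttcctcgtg
Psme2, chr14:55591052-55591351, minus strand, the first of 2 listed starts: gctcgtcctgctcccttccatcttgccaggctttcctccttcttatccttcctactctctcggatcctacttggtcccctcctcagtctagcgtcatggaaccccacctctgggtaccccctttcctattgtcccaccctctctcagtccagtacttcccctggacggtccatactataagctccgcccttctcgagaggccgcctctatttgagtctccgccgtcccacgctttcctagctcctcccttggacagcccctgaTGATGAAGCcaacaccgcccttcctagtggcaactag

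The Psme1 window held GAAANNGAA on the minus strand from base 11 after the start, the Psmb8 window held TTCNNNGAA from 97 bases before the start and TGANNNNGC from base 24 after it, and the Psme2 window held TGANNNNGC from base 14 after its start. None of the 3 motifs was in the Psmb10 window. Among all 32851 windows in the table, 8.56% held GAAANNGAA, 8.3% held TTCNNNGAA and 41.3% held TGANNNNGC. Of the 23 windows of constitutive subunits (22 genes), 4 held GAAANNGAA, 1 held TTCNNNGAA and 13 held TGANNNNGC. Of the 6 windows of the 5 immunoproteasome genes, the counts were 1, 1 and 4. The Sp1 core GGGCGG was in 14 of 23 constitutive and 4 of 6 immunoproteasome windows, against 35.7% of all windows, and CCAAT in 7 and 1, against 37.4%. TTCNNNGAA reads the same on both strands, and no 2 of the 3 marked motifs overlapped in the windows shown. A match describes letters only. Of the 42 members 36 had a window in the table, the others being Psmb1, Psmb2, Psmb7, Psmc3, Psmd7 and Psmg2.

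Psmb10, the inducible replacement for the trypsin-like subunit, had log2 levels of 10.56 and 10.71 in the fibrotic kidneys, against 8.94, 8.66 and 8.87 in the healthy kidneys. It was 9.78, 10.12 and 10.21 in the fibrotic lungs, against 10.79, 10.84 and 10.89 in the healthy lungs. The groups did not overlap in either organ: the obstructed kidneys were all high, and the bleomycin lungs were all low. The kidney rise was 1.81 ± 0.16 on the log2 scale (SE, 3.51-fold, adjusted p = 3.31e-05), and the lung change was -0.80 ± 0.15 (1.75-fold lower, adjusted p = 0.002). A further Psmb10 probe gave changes of 1.89 in the kidney and -0.70 in the lung. The lung change was -0.40 (adjusted p = 0.0508) with arrays scaled to a common median and -0.22 (adjusted p = 0.254) in the authors' processed intensities.

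Psmb8, the inducible chymotrypsin-like subunit, stood at 9.28 and 9.50 in the fibrotic kidneys, against 8.02, 7.87 and 7.89 in the healthy kidneys. In the lungs it was 9.70, 9.71 and 10.57 after bleomycin, against 9.75, 9.54 and 10.00 in healthy mice. Every obstructed kidney was above every healthy one, whereas the lung groups overlapped, with fibrotic lung 3, the array with Xist, the highest of all. The kidney rise was 1.47 ± 0.26 (2.76-fold, adjusted p = 0.00151), and the lung change of 0.23 ± 0.23 did not pass the test (adjusted p = 0.46). Without fibrotic lung 3 the lung change was -0.06, and in the authors' processed intensities it was 0.77 and passed (adjusted p = 0.0229).

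Psmb9, which replaces the caspase-like subunit, lies beside Tap1 and Psmb8 in the MHC region of chromosome 17. Its single probe was above background on 1 of 2 fibrotic and 1 of 3 healthy kidney arrays, and its levels there were 5.21 and 4.74, against 4.74, 5.47 and 4.61. All 6 lungs were above background, at 5.23, 5.40 and 5.57 after bleomycin, against 6.17, 6.02 and 5.98 in healthy mice. The lung groups were apart, with the bleomycin lungs low, and the kidney groups overlapped around the background. The lung change was -0.65 ± 0.23 (adjusted p = 0.0443), a call that ended when any 1 lung array or healthy kidney 1 was left out, with no background correction (-0.24), with a common median (-0.48), in the authors' processed intensities (-0.13, adjusted p = 0.755) and with no detection filter (adjusted p = 0.06), and the kidney change was 0.03 ± 0.25 (adjusted p = 0.935). Tap1, a subunit of the peptide transporter of class I presentation, was at 6.69 and 6.61 in fibrotic kidneys, against 5.30, 4.76 and 4.98 in healthy kidneys, none of which was above background. It was at least 2.52-fold higher in fibrotic kidneys (adjusted p = 0.000135), a bound in which each healthy array counts at the dimmest signal detected on it, or at the Tap1 signal where that was higher.

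The PA28 genes differed in their changes. Psme1, the alpha subunit, had levels of 12.12 and 12.07 in fibrotic kidneys, against 10.99, 10.76 and 10.99 in healthy kidneys, a rise of 1.18 ± 0.13 (2.27-fold, adjusted p = 0.000116). In the lungs it was 11.72, 11.79 and 11.79 after bleomycin, against 12.23, 12.11 and 12.07 in healthy mice, a change of -0.37 ± 0.12 (adjusted p = 0.0342). Every fibrotic kidney was high and every fibrotic lung was low. Its other probe gave 0.99 in the kidney, past the threshold, but 0.31 in the lung, where it was not past it, and the lung call ended when any 1 lung array was left out. Psme2, the beta subunit, was at 8.20 and 8.51 in fibrotic kidneys, against 9.17, 8.70 and 8.89 in healthy kidneys, a change of -0.56 ± 0.21 that missed the threshold (adjusted p = 0.0577) but passed in the authors' processed intensities (-0.83, adjusted p = 0.0178), with no background correction, with a trended prior and without fibrotic lung 1. In the lungs Psme2 was 8.83, 9.33 and 9.21 after bleomycin, against 8.07, 8.08 and 8.42 in healthy mice, a rise of 0.93 ± 0.19 (1.91-fold, adjusted p = 0.00356). Its groups did not overlap in either organ, with low obstructed kidneys and high bleomycin lungs. The difference between the kidney and the lung change passed the test with opposite signs, at 1.55 ± 0.18 for Psme1 (adjusted p = 0.000171) and -1.50 ± 0.28 for Psme2 (adjusted p = 0.0023). Psme2 was read from 1 probe.

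**Figure D2:**
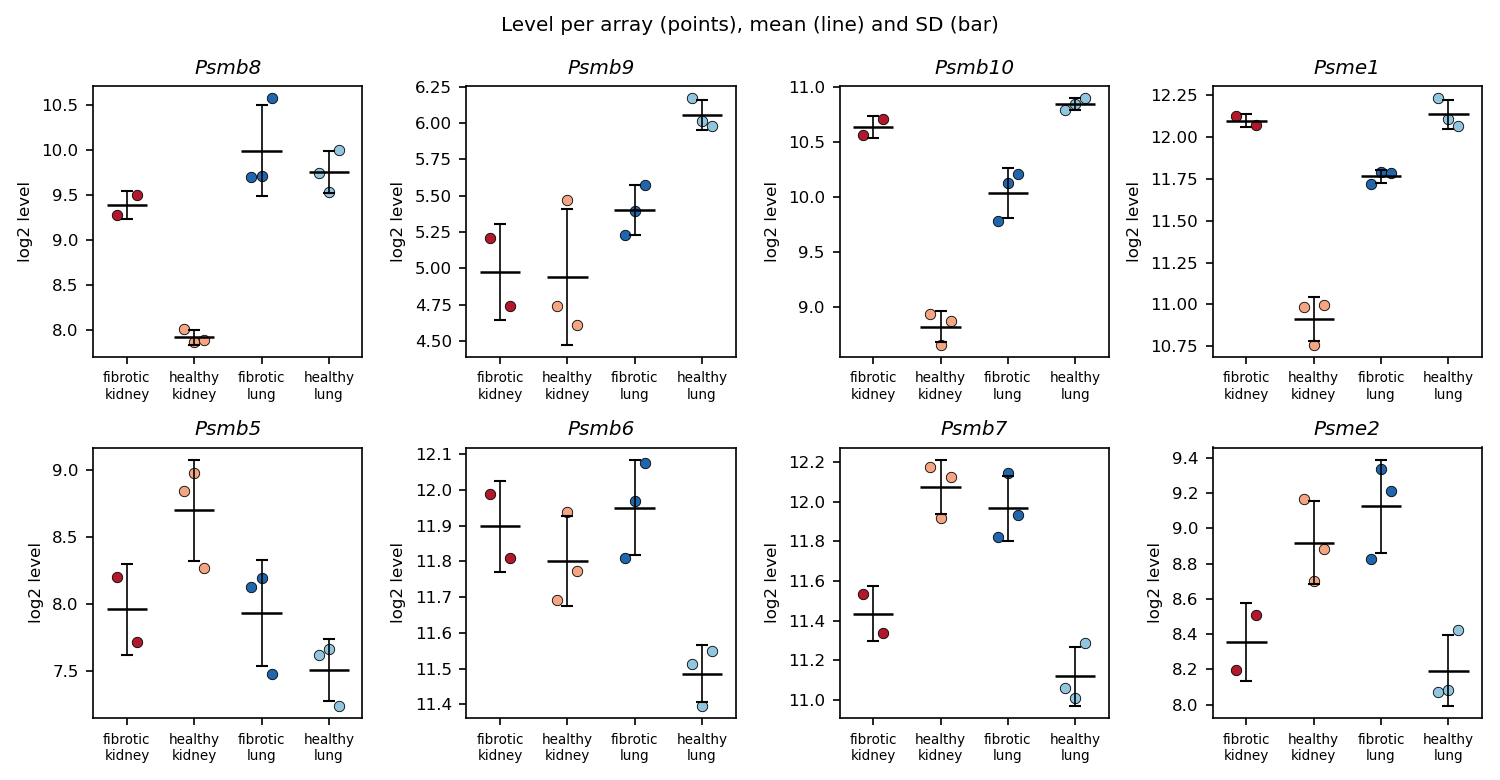
Log2 level per array (points) with the group mean (line) and SD (bar) for the inducible subunits Psmb8, Psmb9 and Psmb10, the PA28 genes Psme1 and Psme2, and the constitutive catalytic subunits Psmb5, Psmb6 and Psmb7, in fibrotic kidney (n = 2), healthy kidney (n = 3), fibrotic lung (n = 3) and healthy lung (n = 3). Psmb10 and Psme1 are high in fibrotic kidneys and low in fibrotic lungs beside their healthy groups, and Psmb7 and Psme2 lie the other way. The vertical axes differ between panels and do not start at 0.

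Among the catalytic subunits that are replaced, Psmb7 was at 11.53 and 11.34 in fibrotic kidneys, against 12.18, 11.92 and 12.13 in healthy kidneys, a change of -0.64 ± 0.16 (1.56-fold lower, adjusted p = 0.0108). It was at 11.82, 12.15 and 11.93 in fibrotic lungs, against 11.06, 11.01 and 11.29 in healthy lungs, a rise of 0.85 ± 0.15 (1.80-fold, adjusted p = 0.00143). The arrays did not overlap in either organ, and the kidney call ended without fibrotic kidney 2. Its 4 probes spanned changes of -1.63 to 0.12 in the kidney and 0.61 to 1.70 in the lung. Psmb6 was at 11.99 and 11.81 in fibrotic kidneys, against 11.69, 11.94 and 11.77 in healthy kidneys, which overlapped, and at 11.81, 11.97 and 12.07 in fibrotic lungs, against 11.51, 11.39 and 11.55 in healthy lungs, which did not. The lung rise was 0.47 ± 0.13 (adjusted p = 0.0183, a call that ended without fibrotic lung 3 or healthy lung 2) and the kidney change 0.10 ± 0.15 (adjusted p = 0.655). Psmb5 was at 8.20 and 7.72 in fibrotic kidneys, against 8.85, 8.98 and 8.27 in healthy kidneys, and at 8.12, 8.20 and 7.48 in fibrotic lungs, against 7.62, 7.66 and 7.24 in healthy lungs. Neither of its changes passed the test, at -0.74 ± 0.29 in the kidney (adjusted p = 0.0639) and 0.43 ± 0.25 in the lung (adjusted p = 0.219). In the authors' processed intensities both passed, at -1.01 in the kidney (adjusted p = 0.0252) and 1.01 in the lung (adjusted p = 0.011). The lung change also passed with a common median, at 0.76 (adjusted p = 0.0362), and the kidney change with no background correction, at -0.58 (adjusted p = 0.0494).

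The balance of each replaced pair was read as the log2 level of the inducible subunit minus that of its constitutive counterpart, of which only the change between groups can be interpreted, since probes differ in brightness. Psmb10 minus Psmb7 was -0.97 and -0.63 in fibrotic kidneys, against -3.24, -3.26 and -3.25 in healthy kidneys, a change of 2.45, and -2.04, -2.02 and -1.72 in fibrotic lungs, against -0.27, -0.16 and -0.39 in healthy lungs, a change of -1.65. Psmb8 minus Psmb5 was 1.08 and 1.78 in fibrotic kidneys, against -0.83, -1.11 and -0.38 in healthy kidneys, a change of 2.20, and overlapped between the lung groups, with a change of -0.19. Psmb9 minus Psmb6 changed by -1.12 in the lung, where the groups did not overlap, and no change of it was read in the kidney, where Psmb9 lay around the background. The balance thus shifted towards the inducible member in both pairs that could be read in the kidney and towards the constitutive member in 2 of 3 in the lung. Permuting the labels within an organ, 2 arrays against 3 allow no exact two-sided p under 0.1 and 3 against 3 none under 0.1, and these 4 shifts each gave 0.1 (0.15 adjusted over the 3 pairs). For the kidney change minus the lung change, an exact permutation test over the 200 arrangements within organs gave 4.10 with p = 0.005 for Psmb10 minus Psmb7 (0.015 adjusted over the 3 pairs), 2.40 with p = 0.06 for Psmb8 minus Psmb5 (0.06 adjusted). In the same exact permutation test Psmb9 minus Psmb6 gave 1.06 (p = 0.06), with Psmb9 around the background in the kidney. The smallest p that test can give is 0.005. For fibrotic against healthy over both organs, an exact permutation test within organs gave 1.01 for Psmb8 minus Psmb5 (p = 0.13, 0.195 adjusted). The same exact permutation test gave -0.59 for Psmb9 minus Psmb6 (exact permutation p = 0.045, 0.135 adjusted). It gave 0.40 for Psmb10 minus Psmb7 (exact permutation p = 0.655, 0.655 adjusted). After adjustment over the 3 pairs, no pair was under 0.05 in this exact permutation test over both organs.

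Taking each array's deviation from the healthy mean of its organ, the median over the 5 immunoproteasome genes minus the median over the 27 constitutive subunits was 1.25 and 1.10 in fibrotic kidneys, against 0.10, -0.21 and -0.01 in healthy kidneys. It was -0.89, -1.08 and -0.90 in fibrotic lungs, against -0.04, -0.04 and 0.07 in healthy lungs. Each fibrotic group lay outside its healthy group, on opposite sides in the 2 organs. The corresponding difference between the 2 medians of fitted changes was 1.19 in the kidney and -0.97 in the lung, which is a description of these lists and has no test. On each fibrotic array the median over the 5 genes was the value of Psme1.

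**Figure D3:**
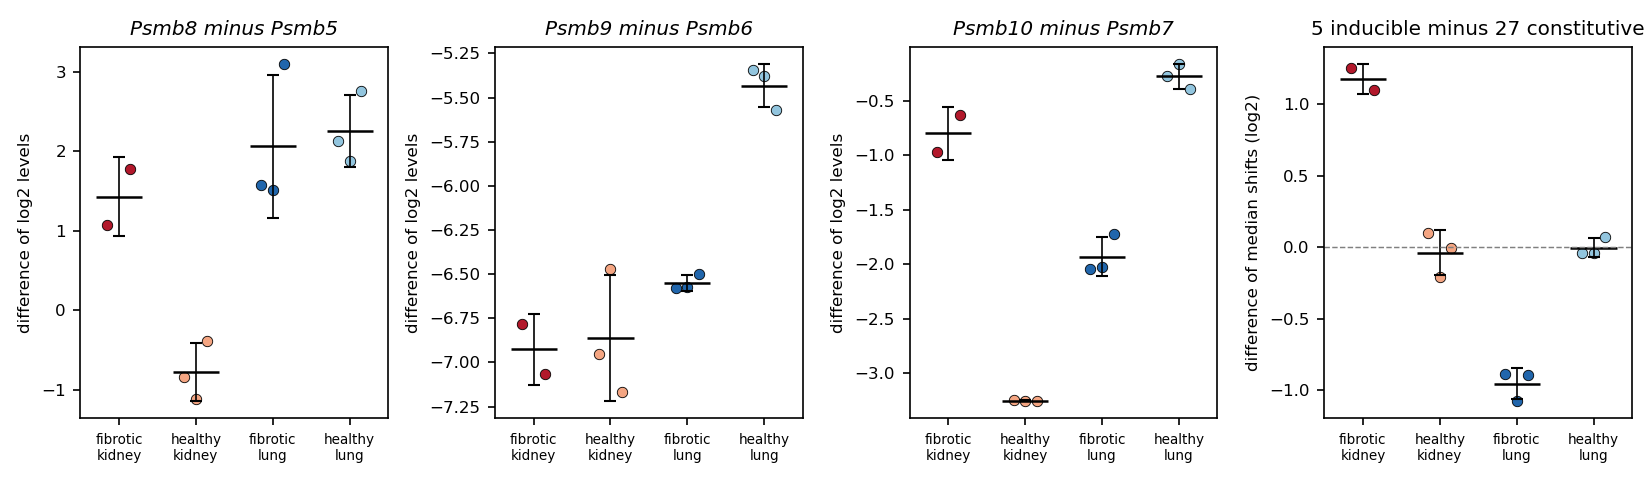
Inducible minus constitutive log2 level per array for 3 pairs of catalytic subunits, and at right the median shift of the 5 immunoproteasome genes minus that of the 27 constitutive subunits, with points for arrays, lines for group means and bars for the SD (n = 2 fibrotic kidneys and 3 in each other group). Psmb10 minus Psmb7 is higher in fibrotic than healthy kidneys and lower in fibrotic than healthy lungs, and the combined value lies at 1.25 and 1.10 in fibrotic kidneys and at -1.08 to -0.89 in fibrotic lungs.

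Most of the 20S core rose in fibrotic lungs and stayed short of the threshold in fibrotic kidneys. All 4 alpha subunits kept (Psma2, Psma4, Psma5 and Psma7) and all 4 structural beta subunits (Psmb1, Psmb2, Psmb3 and Psmb4) rose in fibrotic lungs. With Psmb6 and Psmb7, 10 of 11 rose. The 11 changes ran from 0.43, that of Psmb5, which did not pass, to 1.53, with a median of 0.64. Psmb1 had the largest change, at 11.89, 12.19 and 11.67 in fibrotic lungs, against 10.47, 10.81 and 9.88 in healthy lungs, a rise of 1.53 ± 0.22 (2.89-fold, adjusted p = 0.000603). Psma7 rose by 0.81 ± 0.12 (adjusted p = 0.00055). For both genes every fibrotic lung lay above every healthy one. In fibrotic kidneys 0 of the 11 rose and 2 fell, Psma4 with a change of -0.62 ± 0.13 (adjusted p = 0.00455) and Psmb7 as above. The 11 kidney changes had a median of 0.04. Over all genes, 18.9% rose in the lung, and 23.2% rose and 15.6% fell in the kidney. The 2 of 11 that fell in the kidney are near that share. Psmb1 was at 11.80 and 11.61 in fibrotic kidneys, against 11.56, 11.59 and 11.53 in healthy kidneys, a change of 0.15 ± 0.25 (adjusted p = 0.695).

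In the 19S particle, 9 of 16 subunits rose in fibrotic lungs and 0 fell (median 0.42), against 18.9% of all genes each way. Among the ATPases, which thread the substrate into the core, Psmc1, Psmc3 and Psmc4 rose, Psmc1 most, by 1.03 ± 0.14 (adjusted p = 0.000362). Psmc6 was above background on only 2 arrays. Among the 10 non-ATPase subunits 6 rose: Psmd1, Psmd6, Psmd8, Psmd11, Psmd12 and Psmd14. Psmd12, a scaffold subunit of the lid, was at 10.77, 10.83 and 10.84 in fibrotic lungs, against 9.31, 9.40 and 9.47 in healthy lungs, a rise of 1.42 ± 0.13 (2.67-fold, adjusted p = 6.12e-05). Psmd14, the enzyme that removes ubiquitin chains from substrates at the entry, was at 9.31, 9.59 and 9.45, against 8.28, 7.64 and 8.41, a rise of 1.34 ± 0.23 (adjusted p = 0.0016). Psmd11, a lid subunit whose amount is known to limit 26S assembly in human stem cells, was at 8.56, 9.16 and 8.46, against 8.01, 7.33 and 7.53, a rise of 1.10 ± 0.22 (adjusted p = 0.00334). For these 3 subunits no fibrotic lung fell among the healthy ones, which adds no support, since they were picked by the test on the same arrays.

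In fibrotic kidneys 2 of the 16 19S subunits rose and 3 fell (median -0.01), against 23.2% and 15.6% of all genes. Both counts are near or under those shares. Psmd2, a base subunit that docks ubiquitin carriers, was at 5.53 and 5.22 in fibrotic kidneys, against 6.62, 7.05 and 6.74 in healthy kidneys, a change of -1.43 ± 0.27 (2.70-fold lower, adjusted p = 0.00219), from a dim probe. Psmd11 was at 7.70 and 7.51, against 8.13, 8.39 and 8.36 (-0.69 ± 0.25, adjusted p = 0.0484), and Psmd12 changed by -0.59 ± 0.14 (adjusted p = 0.0085). The 2 that rose were Psmd13, at 12.11 and 12.11, against 11.70, 11.56 and 11.70 (0.45 ± 0.16, adjusted p = 0.0407), and the ubiquitin receptor Psmd4, at 12.43 and 12.65, against 12.11, 12.08 and 12.18 (0.42 ± 0.14, adjusted p = 0.0354). These 5 genes did not overlap between the kidney groups, which adds no support, since they were picked by the test on the same arrays. The calls of Psmd4, Psmd11 and Psmd13 ended when single kidney arrays were left out. In the authors' processed intensities Psmd13 changed by -0.02 (adjusted p = 0.916) and Psmd4 by -0.07 (adjusted p = 0.704), and with a common median Psmd11 changed by -0.35 (adjusted p = 0.326).

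Read from brightest probes, the largest change of any member in each organ was in Psmd5, a chaperone that holds part of the 19S base during assembly. It was at 6.05 and 5.37 in fibrotic kidneys, against 7.97, 7.79 and 7.57 in healthy kidneys, a change of -2.06 ± 0.21 (4.18-fold lower, adjusted p = 6.09e-05). In the lungs it was at 7.51, 7.67 and 7.76 after bleomycin, against 5.58, 5.59 and 5.38 in healthy mice, a rise of 2.13 ± 0.19 (4.37-fold, adjusted p = 4.96e-05). All arrays of healthy kidney and fibrotic lung were high and all others low, the order also seen in raw median intensity, and the gene had 1 detected probe. The difference between the 2 changes was -4.19 ± 0.28 (adjusted p = 1.44e-05). The other 19S chaperones, Psmd9 and Psmd10, rose in the lung by 0.65 and 0.33 and did not pass the test in the kidney, at -0.07 and 0.15. Of the 20S chaperones, Psmg1 was at 8.77 and 8.07 in fibrotic kidneys, against 9.20, 9.28 and 9.19 in healthy kidneys (-0.80 ± 0.22, adjusted p = 0.0155, a call that ended without fibrotic kidney 2 and with a common median), and rose in the lung by 0.74 ± 0.20 (adjusted p = 0.0138). Psmg3 was the only member that rose in both organs, at 9.05 and 9.03 in fibrotic kidneys, against 8.53, 8.74 and 8.53 in healthy kidneys (0.44 ± 0.14, adjusted p = 0.0321), and by 0.43 ± 0.13 in the lung (adjusted p = 0.0228). Psmg2 passed in neither organ, at -0.23 and -0.05. Altogether 1 of the 6 assembly chaperones rose and 2 fell in the kidney, against 23.2% and 15.6% of all genes. In the lung 5 rose and 0 fell, against 18.9% each way.

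Outside PA28 alpha and beta, Psme3, which encodes the nuclear activator PA28 gamma, was at 10.28 and 10.12 in fibrotic kidneys, against 9.39, 9.56 and 9.85 in healthy kidneys, a rise of 0.60 ± 0.20 (adjusted p = 0.038). That call, like the kidney call of Psmg3, ended without either fibrotic kidney and in the authors' processed intensities (adjusted p = 0.23 for Psme3 and 0.321 for Psmg3). Its lung change was -0.28 ± 0.18 (adjusted p = 0.261), with overlapping groups. Psme4, which encodes the PA200 activator, did not pass in either organ by its brightest probe, at -0.29 and 0.13. Its dimmer probe, detected on 9 of 11 arrays, averaged 4.51 in fibrotic kidneys and 6.89 in healthy kidneys. That probe passed in the kidney, with a change of -2.38 (limma adjusted p over probes = 9.65e-06), so the Psme4 kidney result depends on the probe read. Psmc3ip and Psme3ip1, which only share the symbol, did not pass in either organ.

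Set side by side, 6 of the 42 members were lower in fibrotic kidneys and higher in fibrotic lungs, against 3.49% of all genes tested. They were Psma4, Psmb7, Psmd5, Psmd11, Psmd12 and Psmg1. The reverse, higher in fibrotic kidneys and lower in fibrotic lungs, held for 2 (Psmb10 and Psme1), against 4.88%. That count is near the share over all genes, and the other Psme1 probe changed by 0.31 in the lung. The difference between the kidney and the lung change passed the test upwards for 4 of 42 members and downwards for 16, against 23.9% and 16.2% of all genes. Among the 27 constitutive subunits 0 passed upwards and 13 downwards (median -0.60, against 0.14 over all genes), and among the 5 immunoproteasome genes 3 passed upwards and 1 downwards (median 1.23).

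The healthy organs themselves differed. In healthy kidneys against healthy lungs, 16 of 42 members were higher and 4 lower, against 28.2% and 33.5% of all genes. The 4 lower ones were all immunoproteasome genes: Psmb10 with a log2 difference of -2.02 ± 0.15 (4.05-fold lower, adjusted p = 1.02e-06), Psmb8 with -1.84 ± 0.23 (adjusted p = 5.54e-05), Psme1 with -1.22 ± 0.12 (adjusted p = 9.56e-06) and Psmb9 with -1.11 ± 0.23 (adjusted p = 0.00157). Psmb9 was above background on 1 of 3 healthy kidney arrays, and its difference did not pass in the authors' processed intensities (-0.63, adjusted p = 0.107). Psme2 was higher in healthy kidneys by 0.73 ± 0.19 (adjusted p = 0.00682). Of the 27 constitutive subunits, 11 were higher in healthy kidney and 0 lower, with a median difference of 0.32. The larger differences towards the kidney were those of Psmd5 (2.26 ± 0.19), Psmg1 (1.86 ± 0.20), Psmd2 (1.69 ± 0.24), Psmb5 (1.19 ± 0.25) and Psmb1 (1.18 ± 0.22). On the level scale, Psmb10 and Psme1 averaged 10.64 ± 0.10 and 12.10 ± 0.04 in fibrotic kidneys (SD, n = 2), against 8.82 ± 0.14 and 10.91 ± 0.13 in healthy kidneys (SD, n = 3), and stood at 10.84 ± 0.05 and 12.14 ± 0.09 in healthy lungs (SD, n = 3).

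For 21 members more than 1 probe was detected, which gives a check within the arrays. All probes of a gene had the same call for 13 of the 21 in the kidney and 13 in the lung. Others had called and uncalled probes, 8 in the kidney and 7 in the lung, and 1 gene, Psmd7, had opposite calls in the lung, with probe changes of 1.30, 0.18 and -0.69. A Psmd7 probe and a Psmd10 probe also changed by -1.41 and -0.85 in the kidney and by 1.30 and 1.44 in the lung, larger than their brighter probes. For Psmb2, Psmb6, Psmb7, Psma7, Psmd9, Psmd11, Psmd12 and Psmd14 each detected probe rose in the lung.

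**Figure D4:**
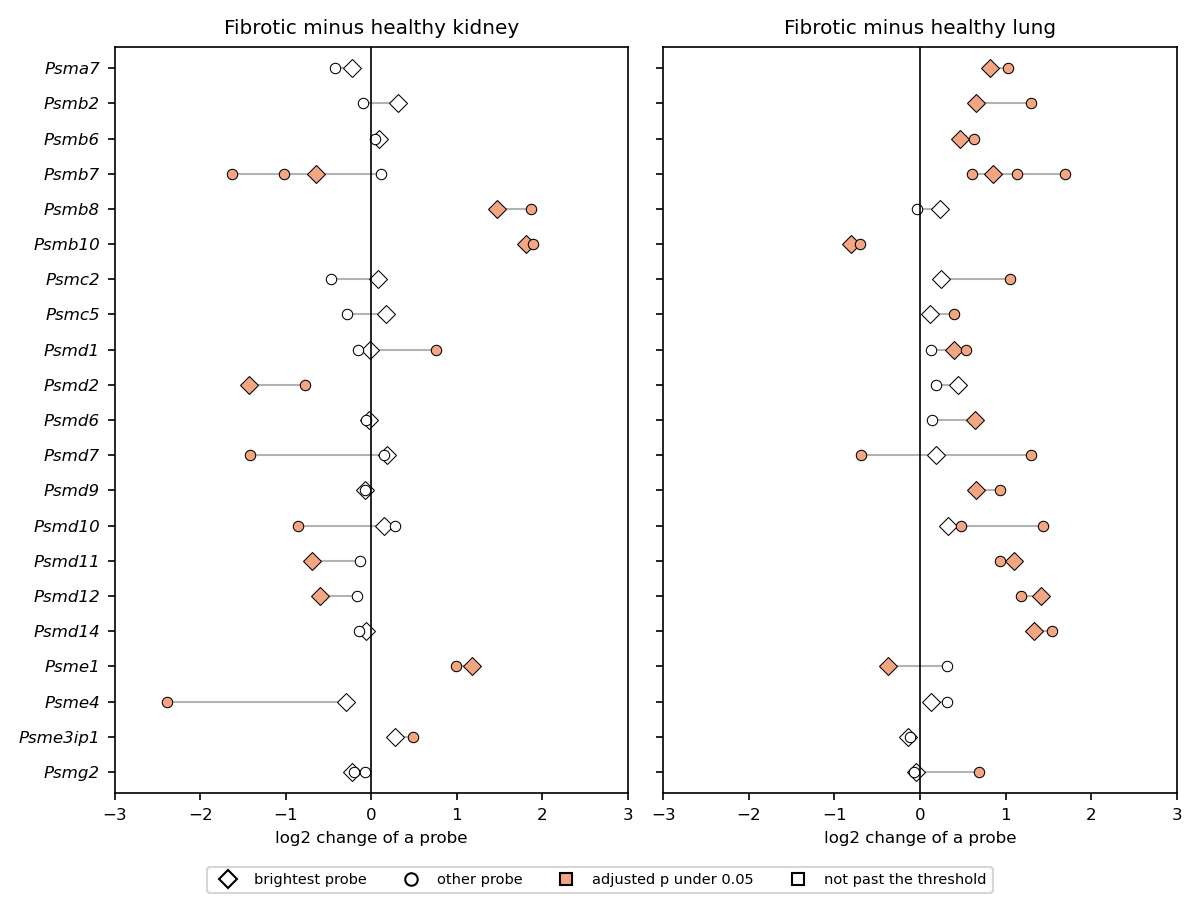
Log2 change of each detected probe (diamond, brightest probe of the gene; circle, other probe) in fibrotic against healthy kidney (left) and lung (right) for the 21 members with more than 1, filled at an adjusted p under 0.05 over probes. The Psmb8 and Psmb10 probes lie together on the higher side in the kidney, whereas probes of Psmb7, Psmd7 and Psme4 are far apart.

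Of 13 genes tested that work with the proteasome but lie outside the symbol rule, 3 rose and 0 fell in fibrotic kidneys (median 0.10), against 23.2% and 15.6% of all genes, and 1 rose and 1 fell in fibrotic lungs (median 0.08), against 18.9% each way. The share that rose in the kidney is near that of all genes. Nfe2l1, the transcription factor that raises proteasome genes when proteasome capacity is short, was at 11.43 and 11.39 in fibrotic kidneys, against 10.22, 10.19 and 10.51 in healthy kidneys, a rise of 1.10 (adjusted p = 0.000518), and changed by -0.21 in the lung (adjusted p = 0.292). Its fibrotic and healthy kidneys did not overlap. Sem1, a small 19S subunit, rose in the kidney by 0.55 (adjusted p = 0.0157), and so did the ubiquitin shuttle factor Ubqln4, by 0.70 (adjusted p = 0.00922). In the lung the 19S-bound deubiquitinase Uchl5 rose by 0.70 (adjusted p = 0.00929), and the shuttle factor Ubqln1 fell by 0.98 (adjusted p = 0.000427).

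Genes of class I presentation and interferon-gamma signalling were mostly higher in fibrotic kidneys and more often lower than higher in fibrotic lungs. Of 25 tested, 15 rose and 1 fell in fibrotic kidneys (median 0.99), against 23.2% and 15.6% of all genes. In fibrotic lungs 5 rose and 10 fell (median -0.52), against 18.9% each way. The share that rose in the lung is near that of all genes. In the kidney the smallest p-values were those of the chaperone Calr, which changed by -2.25 (adjusted p = 5.69e-05), the interferon-induced GTPase Gbp2, which rose by 2.17 (adjusted p = 8.33e-05), and Tap1. In the lung they were those of Calr, which rose by 1.68 (adjusted p = 0.000232), Tap2, which changed by -1.32 (adjusted p = 0.000891), and Tapbpl, which changed by -1.06 (adjusted p = 0.000986). Calr, like Psmd5, was higher on all healthy kidney and fibrotic lung arrays than in the comparison group of its organ.

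Most leukocyte markers were higher in fibrotic kidneys, where 3 of the 5 immunoproteasome genes rose. The log2 of the summed intensity of 10 markers was 13.15 and 13.09 in fibrotic kidneys, against 10.62 to 10.91 in healthy kidneys, with 10 and 7 of the 10 above background, against 4 to 8. Of the 10, 6 rose and 0 fell, against 23.2% and 15.6% of all genes. The 6 were Laptm5, Cd52, Cd53, Coro1a, Csf1r and Nkg7. Laptm5 had the highest level of the 10, at 12.19 and 12.31, against 9.51 to 9.76. Cd3e, Cd3g and Cd79b did not pass, nor did Itgb2, which changed by -0.45. In the lung the sum was 13.50 to 13.71 after bleomycin, against 13.33 to 13.95 in healthy mice, which overlap. There 2 of the 10 rose and 5 fell, against 18.9% of all genes each way, so the share that rose is near that of all genes. The B-cell marker Cd79b fell by 2.60 (adjusted p = 0.000128), and the lymphocyte markers Nkg7, Cd3g and Cd3e fell by 1.78, 1.87 and 1.36, while Cd53 and Itgb2 rose by 1.26 and 1.06. In whole organs, a different number of cells of a type and a different amount of RNA per cell cannot be told apart, and the part of leukocyte number in the immunoproteasome values was not tested.

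Scaling moved the lung directions of some members. The median change of all genes was 0.10 in the kidney and -0.03 in the lung as reported, 0.27 and 0.20 with the arrays scaled to a common median, and -0.27 and 0.62 in the authors' processed intensities. Relative to that median, the constitutive subunits had a median lung change of 0.63, 0.75 and 0.60 under the 3 scalings and a kidney change of -0.10, -0.15 and -0.18, and the immunoproteasome genes a lung change of -0.34, -0.16 and -0.41 and a kidney change of 1.09, 1.06 and 1.03. Each of these immunoproteasome medians was the value of 1 gene, Psme1, read from its brightest probe. In absolute terms the lung change of Psme1 was 0.03 under a common median and 0.21 under the authors' processing, neither past the threshold. In the lung 33 of the 42 members rose and 0 fell under a common median, against 31.8% and 10.1% of all genes, and 37 rose and 0 fell under the authors' processing, against 47.4% and 5.74%. In the kidney 9 rose and 5 fell under a common median, against 32.5% and 9.62% of all genes, and 3 rose and 15 fell under the authors' processing, against 12.4% and 25%.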

How the data were processed

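Total RNA from 11 whole kidneys and lungs was measured, 1 array per organ. RNA was extracted with Trizol and made into biotinylated cRNA (MessageAmp, Ambion), per the labels' protocols, and the submitters' processing notes name GenomeStudio 5.0. The deposited table gives raw bead intensities and detection p-values for 45281 probes. The authors also deposited processed intensities, which followed the raw intensity of each array along a straight line (largest residual 0.109), so they are linear, background-subtracted and scaled by 1 factor per array, with medians of 16.8 and 16.2 in fibrotic kidneys, 28.4, 28.8 and 23.4 in healthy kidneys, 18.6, 24.7 and 16.4 in fibrotic lungs and 10.9, 10.9 and 10.6 in healthy lungs. No scale or direction stayed unknown. No source used here gives the slide or the scan date.

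Raw intensities were corrected for background and quantile normalised by limma's neqc function (limma 3.58.1, R 4.3.3, negative controls inferred from detection p-values, offset 16). Probes with 1 gene symbol (34885; 18 carried several and 10378 none) and detection at p under 0.05 on 2 or more arrays were kept, and the brightest probe stood for each of 12865 genes. All 11 arrays went into a single lmFit and eBayes fit, with a coefficient for each group (7 residual and 3.22 prior degrees of freedom), adjusted by Benjamini-Hochberg within a contrast. It was tested on simulated data. Pairs of subunits were tested by exact permutation of arrays within organs, two-sided. The number of arrays limits the precision. Within a group the arrays are of different mice, as the design text states.

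The titles give each healthy kidney the mouse of a healthy lung, while the description field numbers the mice separately. Deviations of same-mouse arrays from their group means correlated at 0.01, -0.07 and -0.11, and organs of the same animal count as paired, so fits with the mouse as a block were alternatives. The members, lists and tests were chosen with earlier results of these data known. Full values are given for the immunoproteasome genes, the replaced catalytic subunits and up to 4 further members with the largest change per direction in each contrast; Tap1, Nfe2l1 and Calr are pathway genes, named by rank of p. All 42 symbols matched RefSeq genes of GRCm38.p6, from which positions and sequences come. Of 28 proteasome partners, 28 class I and interferon-gamma genes and 15 leukocyte markers listed, 13, 25 and 10 were tested.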

Additional observations from a re-analysis of the deposited data

Results flagged for a closer look

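A test of the kidney change against the lung change passed for 20 members, and the values below are kidney minus lung log2 changes. It passed upwards for 4 of the 42 and downwards for 16, against 23.9% and 16.2% of all genes. Psmb10 (2.62), Psme1 (1.55), Psmb8 (1.23) and Psme3 (0.88) moved further upwards in the kidney. Psmd5 (-4.19), Psmd12 (-2.01), Psmd2 (-1.87), Psmd11 (-1.80) and Psmd14 (-1.39) stood lowest among the genes of the 19S particle and its assembly, with Psmc1 (-1.28), Psmd8 (-0.997) and Psmc4 (-0.60) behind them. In the 20S core the values were -1.49 for Psmb7, -1.38 for Psmb1, -1.16 for Psmb5, -1.07 for Psma4, -1.04 for Psma7 and -0.89 for Psmb3. The 20S chaperone Psmg1 (-1.55) and the PA28 gene Psme2 (-1.50) had the same sign. The calls of Psmb5 and Psme3 ended when single arrays were left out, and that of Psmb8 ended without fibrotic kidney 2 (1.12). In the authors' processed intensities Psmb8 stood at 0.50 (adjusted p = 0.267) and Psme3 at 0.05 (adjusted p = 0.897), and Psme3 also missed the threshold with a common median (adjusted p = 0.0594). With 2 or 3 arrays a group, no array was tested as an outlier.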

How the results depend on the processing

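Alternatives were no background correction, another scaling, the authors' processed intensities, no or a stricter detection filter, other ways to choose a gene's probe, fewer arrays, array weights, a trended prior and the mouse as a block. With no background correction, the change of Psmb10 minus Psmb7 in the kidney was 2.25, that of Psmb9 minus Psmb6 in the lung -0.69 and the difference between the inducible and constitutive medians in the lung -0.69. With a common median, Psmb10 minus Psmb7 changed by 2.71 in the kidney, 0 members fell in the lung and Psme1 changed by 0.033 there. In the authors' intensities, 3 members rose and 15 fell in the kidney, 0 fell in the lung, the difference between the organs' changes passed upwards for 2 and downwards for 35 (6.8% and 43.8% of all genes), 34 were higher in healthy kidney than in healthy lung (45.3% of all genes), Psmb10 minus Psmb7 changed by 2.70 in the kidney, Psmd13 and Psmd4 by -0.024 and -0.074 there and Psme1 by 0.21 in the lung. With the mean of a gene's probes, the pair changes of Psmb10 minus Psmb7 were 2.65 in the kidney and -1.82 in the lung, and the difference of medians in the lung was -0.63. With the most variable probe, Psmb10 minus Psmb7 changed by 3.52 and -2.40. On the kidney arrays alone 4 of 41 members rose, against 23.2% of all genes, and with array weights 3 of 42, against 17%. Without fibrotic lungs 1 and 3, a setting chosen after seeing the data that left 1 fibrotic lung, the difference of medians in the lung was -1.09. The cause of these changes was not tested.

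Leaving out 1 array at a time gave 3 to 7 members higher and 4 to 8 lower in the kidney, 18 to 25 higher and 1 to 3 lower in the lung, a difference of medians of 1.05 to 1.25 in the kidney, and pair changes of 2.28 to 2.62 (Psmb10 minus Psmb7) and -0.22 to 0.15 (Psmb9 minus Psmb6) in the kidney and -0.719 to 0.084 (Psmb8 minus Psmb5) in the lung. With the mouse as a random replicate block (correlation -0.03), 16 members were higher and 4 lower in healthy kidney than in healthy lung, and with the paired fit over the healthy arrays 15 and 4. The block changed no other call count by over 1.5 times. Tested inside the linear model, also chosen after seeing the data, the 3 pair differences between kidney and lung change gave adjusted p-values of 0.00438 (Psmb8 minus Psmb5), 0.00428 (Psmb9 minus Psmb6) and 2.36e-08 (Psmb10 minus Psmb7), adjusted over 9 tests. Probes near background, such as those of Psmb9, Psmc6 and Psmd2, limit what can be read from those genes.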
